A study of Mus musculus with 8 samples.

Results

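Chromatin accessibility at 10 genes that limit inflammatory signaling was followed by ATAC-seq, which tags open DNA with a transposase, in mouse bone marrow-derived macrophages (BMDMs). The 10 genes were the dual-specificity phosphatase genes Dusp1, Dusp2, Dusp4, Dusp5, Dusp6, Dusp10 and Dusp16, the cytokine signaling inhibitor Socs3, and the mRNA decay genes Zfp36 and Zc3h12a. Every peak that the deposited tables assign to one of them, with its center at most 100000 bp from the transcription start site (TSS), was taken as a member. That rule gave 20 of the 9698 peaks counted in WT BMDMs, at 8 of the 10 genes, and 48 of the 24867 peaks counted in NCoR1 flox/flox BMDMs, at all 10 genes. Another 1 WT peak and 3 NCoR1 flox/flox peaks of these genes lay farther away and were left out. In the WT table no peak was assigned to Dusp1 or Dusp16 within this distance.

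The WT groups were Veh, KLA, and RGFP966 + KLA, each at 6 h and each with 2 libraries, and the remaining 2 libraries were NCoR1 flox/flox at 6 h of Veh. KLA is Kdo2 lipid A, a TLR4 agonist, and RGFP966 is an inhibitor of the histone deacetylase HDAC3 that was added before KLA. For the RGFP966 + KLA pair, the sample titles name RGFP966 while the treatment entry names only KLA. The NCoR1 flox/flox cells carry floxed alleles of the gene for the corepressor NCoR, their label names no Cre, and all groups were BMDMs of C57BL/6 background by the study's methods. Separate mice or cultures are not stated for the 2 libraries of a condition, so p-values measure only the spread between these libraries, which may be technical. The comparisons ask how the loci respond to TLR4 stimulation and whether HDAC3 inhibition alters that response.

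The activity of MAP kinases, JAK-STAT signaling and unstable cytokine mRNAs is limited in macrophages by genes that the same stimuli induce. Dual-specificity phosphatases remove the activating phosphates of ERK, p38 and JNK. SOCS proteins block receptor-bound JAK kinases. Zfp36 (tristetraprolin) binds AU-rich elements of cytokine mRNAs and recruits the deadenylation machinery, and Zc3h12a (Regnase-1) is an endoribonuclease that cleaves stem-loops of mRNAs such as that of Il6.

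WT libraries held between 116733 and 202523 tags in peaks, of 6247529 to 11005917 tags in all, and the NCoR1 flox/flox libraries held 372367 and 509741. Levels are given as tags per 100000 tags in the peaks of that library, called the share below, and the tables were counted on different peaks, so shares are not compared between them. Between 1.40% and 2.73% of the tags of a library lay in peaks, and the median WT peak had 10 to 17 tags. Of 10 macrophage marker genes, 2, Cd68 among them, had a peak within 2000 bp of the TSS in the WT table, and 7 did in the NCoR1 flox/flox table. None of the markers of T cells, B cells, neutrophils or fibroblasts had such a peak in either table. In bulk cells, more open alleles per cell and more cells with an open allele cannot be told apart.

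Windows of 200 bp, centered on member peaks, are shown for the peaks that the results turn on. They comprise the 6 peaks called in at least 1 comparison, the Dusp5 promoter, which was the one member with CArG matches, and Zfp36 -1920, which had the lowest unadjusted p for RGFP966 + KLA against KLA. Peaks are named by gene and by the distance of their center to the TSS in bp. The sequence is the plus strand of RefSeq's GRCm38.p6 (mm10), the build of the tables, and capitals mark motif matches. The Socs3 promoter window lies at chr11:117969181-117969380, the Zc3h12a windows at chr4:125158094-125158293 (intergenic) and chr4:125124942-125125141 (intron), and the Dusp10 window at chr1:184085034-184085233 (intergenic). The Dusp6 window lies at chr10:99268850-99269049 (intergenic), the Dusp4 promoter window at chr8:34807040-34807239, the Dusp5 promoter window at chr19:53528892-53529091, and the Zfp36 window at chr7:28381048-28381247, which the table annotates as intergenic.
Socs3 +85: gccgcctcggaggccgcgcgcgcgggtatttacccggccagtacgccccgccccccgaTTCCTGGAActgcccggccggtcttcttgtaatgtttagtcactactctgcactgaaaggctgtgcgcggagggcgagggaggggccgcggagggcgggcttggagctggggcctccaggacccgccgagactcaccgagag
Zc3h12a -30313: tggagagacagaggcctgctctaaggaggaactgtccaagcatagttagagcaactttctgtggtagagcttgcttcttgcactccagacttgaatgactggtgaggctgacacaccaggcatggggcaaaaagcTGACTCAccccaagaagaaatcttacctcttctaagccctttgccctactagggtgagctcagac
Zc3h12a +2839: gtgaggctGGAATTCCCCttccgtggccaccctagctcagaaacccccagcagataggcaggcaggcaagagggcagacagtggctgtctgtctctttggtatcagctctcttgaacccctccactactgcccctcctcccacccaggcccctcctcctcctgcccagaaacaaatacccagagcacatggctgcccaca
Dusp10 +50753: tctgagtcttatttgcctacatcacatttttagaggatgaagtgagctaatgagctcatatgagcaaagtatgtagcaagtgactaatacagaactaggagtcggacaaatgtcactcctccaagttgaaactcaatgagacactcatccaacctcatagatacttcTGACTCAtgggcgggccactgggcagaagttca
Dusp6 +5719: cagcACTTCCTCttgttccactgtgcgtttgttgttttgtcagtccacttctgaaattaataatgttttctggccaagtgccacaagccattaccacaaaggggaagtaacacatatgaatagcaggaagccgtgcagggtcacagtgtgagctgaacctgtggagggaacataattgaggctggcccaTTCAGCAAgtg
Dusp4 -470: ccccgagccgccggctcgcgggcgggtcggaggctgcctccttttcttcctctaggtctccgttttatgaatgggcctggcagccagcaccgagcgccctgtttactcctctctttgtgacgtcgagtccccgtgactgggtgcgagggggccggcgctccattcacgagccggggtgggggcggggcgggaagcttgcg
Dusp5 -326: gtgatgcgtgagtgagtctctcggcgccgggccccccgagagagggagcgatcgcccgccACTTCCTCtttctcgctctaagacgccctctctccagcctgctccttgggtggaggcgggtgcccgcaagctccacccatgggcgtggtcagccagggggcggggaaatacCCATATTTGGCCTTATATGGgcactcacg
Zfp36 -1920: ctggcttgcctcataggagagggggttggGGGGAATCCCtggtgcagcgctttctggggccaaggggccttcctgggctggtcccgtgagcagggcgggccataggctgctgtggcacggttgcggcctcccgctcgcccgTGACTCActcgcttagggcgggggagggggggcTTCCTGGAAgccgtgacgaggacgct

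Matches were searched on both strands for NFkB, IRF and CArG, each by its consensus, and for AP-1 (TGACTCA or TGAGTCA), CRE (TGACGTCA), STAT (TTCNNNGAA), PU.1 (GAGGAAGT) and C/EBP (TTGCNNAA). A STAT match, bound by the factors whose activation SOCS proteins limit, stood in 5 of the 20 member windows and in 5.31% of the windows of all 9527 WT peaks on assembled chromosomes. Of these 5, 3 were Socs3 peaks, at +85, +9238 and +22726, and the other two were Zc3h12a +409 and Zfp36 -1920. NFkB matches stood in 3 member windows, Zc3h12a +409, Zc3h12a +2839 and Zfp36 -1920, against 4.90% of all windows. AP-1 matches stood in 4, Dusp10 +50753, Zc3h12a -30313, Zc3h12a +11198 and Zfp36 -1920, against 15.7% of all. The Dusp5 promoter held 2 adjacent CArG matches, the element bound by serum response factor, which 1.01% of all windows hold at least once. PU.1 matches stood in 3 member windows against 7.52% of all, C/EBP matches in 2 against 10.9%, and CRE and IRF matches in none, against 1.90% and 2.50%. The capitals of the Dusp6 window are a PU.1 and a C/EBP match, and the Dusp4 window held none of the motifs. The median GC content was 68.5% in member promoter windows and 56.5% in the other member windows, against 56.5% over all windows. These matches are strings in the genome and say nothing of binding in these cells.

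Promoter peaks, within 2000 bp of a TSS, made up 9 of the 20 member peaks (45.0%), against 50.7% of the whole WT table. By the authors' own peak calling, 12 of the 20 were outside the peak set of Veh, against 51.1% of all WT peaks, and 7 belonged to the RGFP966 + KLA set alone, against 30.0%. The member peaks together took between 0.152% and 0.208% of the tags in peaks of a WT library.

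**Figure D1:**
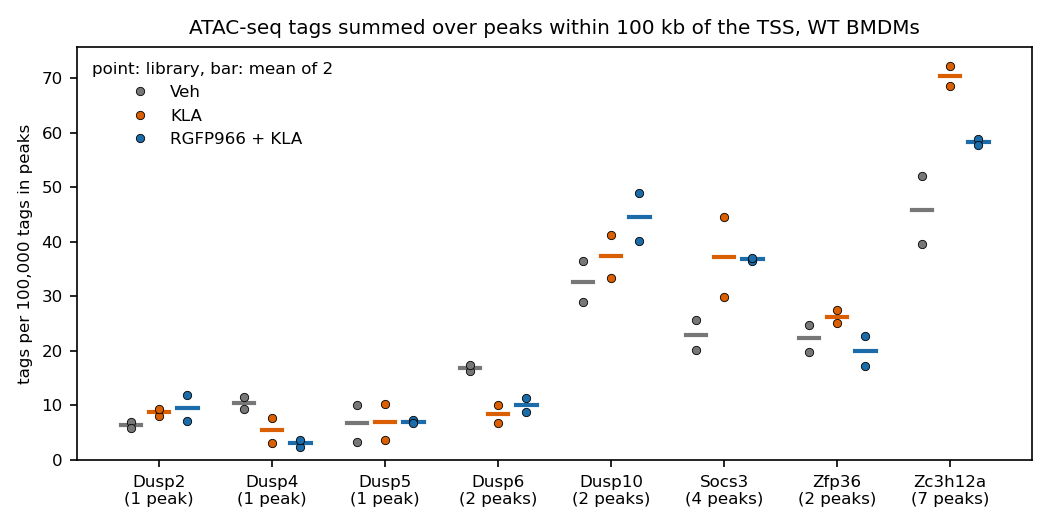
ATAC-seq tags summed over the member peaks of each gene in WT BMDMs, as tags per 100,000 tags in peaks (y axis) by gene and condition (x axis), where points are libraries and bars the mean of 2. Zc3h12a stood at 68.5 and 72.2 with KLA against 39.6 and 52.0 at Veh, and Dusp4 at 2.47 and 3.6 with RGFP966 + KLA against 9.31 and 11.6 at Veh.

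With KLA, 4 of the 20 member peaks were called changed, with 3 gained and 1 lost. The gained peaks were the Socs3 promoter and a pair of distal Zc3h12a peaks, and the lost peak lay downstream of Dusp6. None of the 3 gained peaks was in the Veh peak set, and the lost peak was in the Veh set alone. These 4 peaks thus entered the table through groups where they were high. The calls are therefore not independent of how the peaks were chosen. Peaks were called by edgeR's quasi-likelihood test at a Benjamini-Hochberg adjusted p under 0.05 over all 9698 peaks and a change over 2-fold. Over the whole table, 3.3% of peaks were gained and 1.73% were lost by this rule. The median log2 fold change of the 20 members was 0.34, against 0.02 over all peaks. At an unadjusted p under 0.05, 7 of the members and 1888 of all peaks differed. DESeq2, the tool of the authors, called 0 peaks of the whole table at the same thresholds, with 570 peaks and 4 members under an unadjusted p of 0.05, so each call below is a call by edgeR alone.

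**Figure D2:**
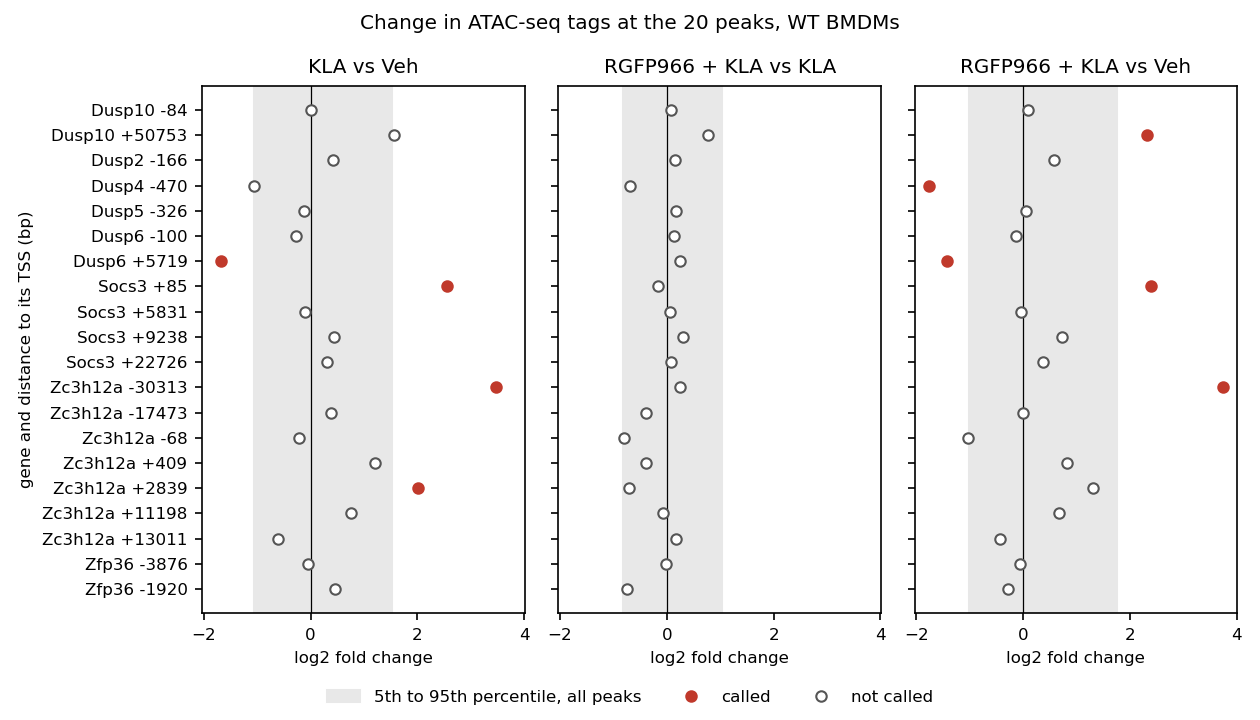
Log2 fold change of ATAC-seq tags (x axis) at each of the 20 member peaks (y axis, gene and distance to its TSS in bp) for the 3 WT comparisons (one per panel), with filled points for called peaks and a grey band for the 5th to 95th percentile of all 9698 peaks. The left panel has 4 filled points, the middle panel none, and the right panel 5.

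Among the phosphatase genes, the Dusp10 promoter peak (-84, chr1:184034145-184034450) had the highest share of all member peaks in every library. Dusp10 acts on p38 and JNK. Its promoter held 32.6 and 28.1 at Veh, 35.8 and 23.1 with KLA, and 33.1 and 31.4 with RGFP966 + KLA, and the 3 groups overlapped. The ratio of pooled shares of KLA over Veh was 1.02, with an exact 95% interval of 0.745 to 1.40. Ratios and intervals of this kind pool the 2 libraries of a group and cover counting error only. The distal Dusp10 peak (+50753) held 3.88 and 0.83 at Veh, 5.35 and 10.3 with KLA, and 15.8 and 8.75 with RGFP966 + KLA. Both KLA libraries were above both Veh libraries there, but the change with KLA, 1.56 on the log2 scale, was not called (edgeR adjusted p = 0.14). Against Veh, RGFP966 + KLA gained the peak, by 2.33 on the log2 scale (edgeR adjusted p = 0.00268) and 5.15-fold in pooled shares (2.20 to 14.7), while the promoter ratio was 1.06 (0.793 to 1.43). That call was lost without Veh replicate 2 (edgeR adjusted p = 0.0821) or RGFP966 + KLA replicate 1 (0.0986). The change itself was 1.65 on the log2 scale without Veh replicate 2 and 3.78 without Veh replicate 1. The change with KLA was 0.89 without Veh replicate 2 and 3.02 without Veh replicate 1.

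Dusp6 encodes a cytoplasmic phosphatase of ERK. Its distal peak (+5719) held 8.53 and 10.7 at Veh, 2.67 and 3.43 with KLA, and 3.95 and 3.09 with RGFP966 + KLA. Every treated library lay below both Veh libraries. The peak fell by 1.67 on the log2 scale with KLA (edgeR adjusted p = 0.0328), a share 3.24-fold lower (1.45 to 7.92). With RGFP966 + KLA against Veh it fell by 1.42 (edgeR adjusted p = 0.0303). Leaving out any 1 of the 6 WT libraries took the first call past the threshold (edgeR adjusted p from 0.0537 without RGFP966 + KLA replicate 1 to 0.265 without KLA replicate 1), as did fitting only the 4 libraries compared (0.0504). The size of that change stayed between -1.83 and -1.46 on the log2 scale, and at -1.67 without either RGFP966 + KLA library, which the comparison does not use other than for the spread. The second was lost without either Veh library or either RGFP966 + KLA library (edgeR adjusted p 0.0871 to 0.199), and with all tags as library size (0.0726). The Dusp6 promoter peak (-100) held 7.76 and 6.61 at Veh, 7.49 and 3.43 with KLA, and 7.41 and 5.66 with RGFP966 + KLA, with overlapping groups and a ratio of KLA over Veh of 0.823 (0.404 to 1.68).

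Dusp4, a nuclear phosphatase of ERK and JNK, had a single WT peak, at its promoter (-470). It held 9.31 and 11.6 at Veh, 3.21 and 7.71 with KLA, and 2.47 and 3.6 with RGFP966 + KLA. The KLA libraries lay below the Veh libraries without overlap, and the change of -1.06 on the log2 scale was not called (edgeR adjusted p = 0.161). Between Veh and RGFP966 + KLA the peak fell by 1.76 on the log2 scale (edgeR adjusted p = 0.00979), a share 3.44-fold lower (1.67 to 7.48). The call was lost without Veh replicate 2 (edgeR adjusted p = 0.0896), RGFP966 + KLA replicate 1 (0.117) or RGFP966 + KLA replicate 2 (0.0502).

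The remaining phosphatase promoters were not called in any comparison. The promoter of Dusp2, a nuclear phosphatase induced in activated immune cells, held 6.98 and 5.78 at Veh, 8.02 and 9.42 with KLA, and 11.9 and 7.21 with RGFP966 + KLA. Both KLA libraries were above both Veh libraries there, and the ratio was 1.34 (0.691 to 2.67). The promoter of Dusp5, a nuclear phosphatase of ERK, held 10.1 and 3.30 at Veh, 3.74 and 10.3 with KLA, and 7.41 and 6.69 with RGFP966 + KLA. The 2 libraries differed more within Veh and within KLA than the group means did, and the ratio of KLA over Veh was 0.92 (0.453 to 1.88).

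Socs3 had 4 WT peaks, of which only the promoter peak was called with KLA. The promoter peak (+85) had 3 and 2 tags at Veh, 15 and 22 with KLA, and 23 and 20 with RGFP966 + KLA, which are shares of 2.33 and 1.65, of 8.02 and 18.8, and of 11.4 and 10.3. Every treated library was above both Veh libraries. The peak was gained with KLA by 2.56 on the log2 scale (edgeR adjusted p = 0.00389), 6.09-fold in pooled shares (2.39 to 19.9). It was gained with RGFP966 + KLA against Veh by 2.39 (edgeR adjusted p = 0.0034). The KLA call was lost without KLA replicate 2 (edgeR adjusted p = 0.0803, a log2 change of 1.96), and the change was 3.18 without KLA replicate 1, while the second call passed the threshold with each library left out in turn. The 3 downstream peaks, at +5831, +9238 and +22726, held 52 tags at Veh and 71 with KLA in all, a ratio of 1.12 (0.775 to 1.64). None of them was called. The promoter peak entered the table through the KLA and RGFP966 + KLA sets, and these 3 through the RGFP966 + KLA set alone. The contrast between promoter and downstream peaks, and the percentages that follow, therefore depend on how the peaks were chosen. The promoter's share of the tags at the locus was 11.5% (3 of 26, Wilson 95% interval 4.0% to 29.0%) and 6.45% (1.79% to 20.7%) at Veh, and 26.8% (17.0% to 39.6%) and 42.3% (29.9% to 55.8%) with KLA.

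**Figure D3:**
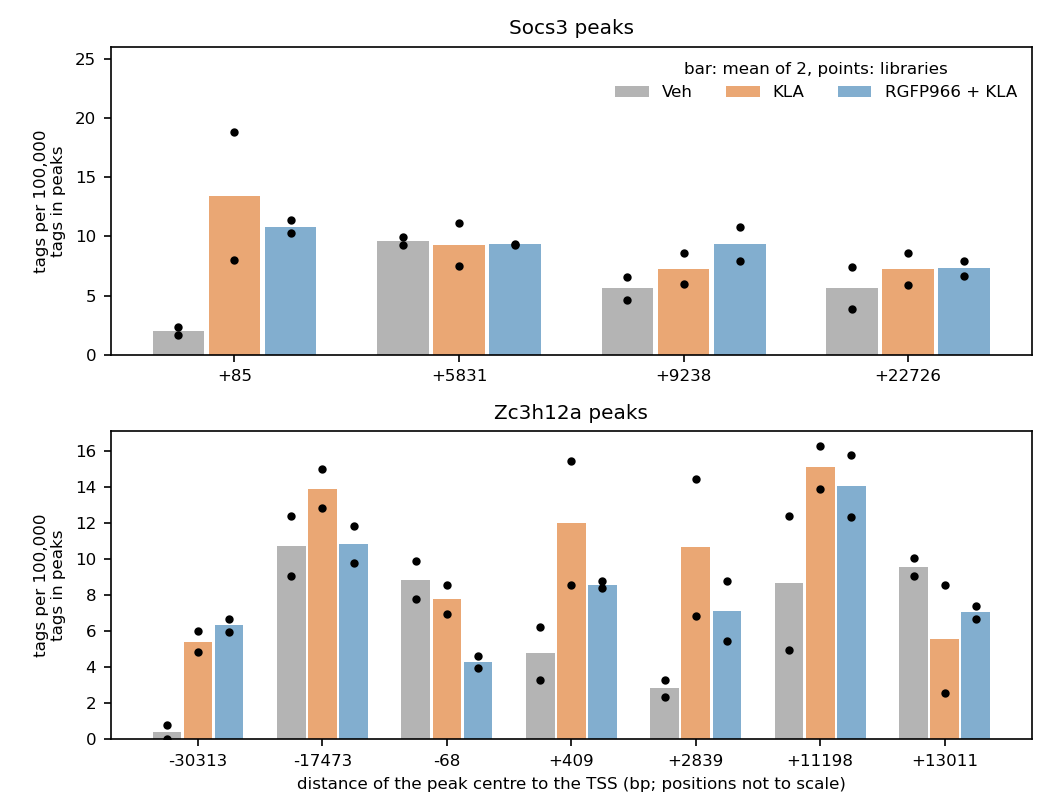
ATAC-seq tags per 100,000 tags in peaks (y axis) at the 4 Socs3 and 7 Zc3h12a peaks of WT BMDMs, ordered by distance of the peak center to the TSS in bp (x axis, not to scale), with bars for the mean of 2 libraries and points for libraries. The Socs3 promoter peak at +85 stands at 2.33 and 1.65 at Veh against 8.02 and 18.8 with KLA, and Zc3h12a -30313 at 0.78 and 0 against 4.81 and 6.00.

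Of the mRNA decay genes, Zc3h12a had 7 WT peaks, the most of any member, with centers from -30313 to +13011. The intergenic peak at -30313 had 1 and 0 tags at Veh, 9 and 7 with KLA, and 12 and 13 with RGFP966 + KLA. Tags at Veh were thus at the limit of detection, and all 4 treated libraries were higher. The peak was gained with KLA (edgeR adjusted p = 0.0131), with a ratio of pooled shares of 13.2 and an interval of 2.05 to 552, and with RGFP966 + KLA against Veh (edgeR adjusted p = 0.00201), with a ratio of 15.8 (2.58 to 647). The KLA call was lost without Veh replicate 1 (edgeR adjusted p = 0.0561), Veh replicate 2 (0.163) or KLA replicate 1 (0.0525), and with loess offsets (0.153). The second was lost without Veh replicate 2 (0.0637) and with loess offsets (0.347). Without Veh replicate 2 the fitted changes were 2.65 and 2.91 on the log2 scale, against 3.48 and 3.74 with all libraries, and without Veh replicate 1 no tag was left at Veh and no fold is given.

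The intronic Zc3h12a peak at +2839, with an NFkB match, held 2.33 and 3.30 at Veh, 14.4 and 6.85 with KLA, and 5.43 and 8.75 with RGFP966 + KLA. The treated libraries all lay above both Veh libraries, and the KLA libraries differed by about as much as the groups. It was gained with KLA by 2.01 on the log2 scale (edgeR adjusted p = 0.0145), 4.12-fold in pooled shares (1.80 to 11.0). The call was lost without Veh replicate 1 (edgeR adjusted p = 0.147), Veh replicate 2 (0.0581) or KLA replicate 1 (0.423), and the change without KLA replicate 1 was 1.27 on the log2 scale. Against Veh, the change with RGFP966 + KLA was 1.31 on the log2 scale and was not called (edgeR adjusted p = 0.129). Of 2 promoter peaks, the one nearest the TSS (-68) held 7.76 and 9.91 at Veh, 6.95 and 8.57 with KLA, and 3.95 and 4.63 with RGFP966 + KLA. Its KLA and Veh libraries overlapped, the RGFP966 + KLA libraries lay below all 4 others, and neither difference from them was called (edgeR adjusted p = 0.133 against Veh and 0.406 against KLA). The other promoter peak (+409), outside the Veh peak set, held 6.20 and 3.30 at Veh, 8.56 and 15.4 with KLA, and 8.39 and 8.75 with RGFP966 + KLA. Both KLA libraries were above both Veh libraries there, with a ratio of pooled shares of 2.33 (1.18 to 4.95). That change, 1.21 on the log2 scale, was not called (edgeR adjusted p = 0.111).

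Zfp36 had a peak at -3876 and one at -1920, and neither was called. The peak at -1920 held 13.2 and 8.26 at Veh, 15.5 and 13.7 with KLA, and 8.89 and 8.75 with RGFP966 + KLA. The KLA libraries were above all others there, with an edgeR adjusted p of 0.512 between KLA and Veh and of 0.282 between RGFP966 + KLA and KLA.

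Summed over the peaks of each gene, Zc3h12a was the 1 member of 8 called with KLA. Its sums were 52.0 and 39.6 at Veh, 72.2 and 68.5 with KLA, and 58.8 and 57.7 with RGFP966 + KLA, with no overlap between any of the groups. The sum rose with KLA by 0.62 on the log2 scale (edgeR adjusted p = 0.0385, over 6598 genes), 1.54-fold in pooled shares (1.22 to 1.95). The Zc3h12a peaks at -30313, +409, +2839 and +11198 were outside the Veh peak set. This call of the sum is thus not independent of how the peaks were chosen either. Over all genes with a peak in this range, 2.64% of sums were called higher and 1.67% lower. Leaving out Veh replicate 2, or any of the KLA and RGFP966 + KLA libraries, ended the call (edgeR adjusted p from 0.0678 without RGFP966 + KLA replicate 1 to 0.32 without Veh replicate 2). It was also lost with all tags as library size (0.553, a log2 change of 0.50) and with only the 4 libraries compared (0.0698). The sums of Socs3 were 20.2 and 25.6 at Veh, 29.9 and 44.5 with KLA, and 36.5 and 37.1 with RGFP966 + KLA, and the KLA change of 0.64 on the log2 scale was not called (edgeR adjusted p = 0.106). The sums of Dusp6 were 16.3 and 17.3 at Veh, 10.2 and 6.85 with KLA, and 11.4 and 8.75 with RGFP966 + KLA, and the KLA change of -0.91 was not called (edgeR adjusted p = 0.118). Of the gene sums, 18 of all genes and 0 of the members were called by DESeq2 for KLA against Veh.

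Between RGFP966 + KLA and KLA, no member peak and no member gene sum was called by edgeR, and DESeq2 called 0 as well. Over all peaks edgeR called 0.237% gained and 0.103% lost, and over all gene sums 0.212% higher and 0.106% lower, so that a count of 0 among 20 peaks or 8 sums lies near the background. The lowest edgeR adjusted p of a member peak was 0.282, at Zfp36 -1920, and 2 of the 20, this peak and Dusp10 +50753, had an unadjusted p under 0.05, as did 1343 of all peaks. By DESeq2, 0 members had one. The precision at these depths left sizeable differences possible. At the Socs3 promoter, the ratio of RGFP966 + KLA over KLA was 0.89 (0.56 to 1.42). It was 1.20 (0.614 to 2.40) at Zc3h12a -30313, 0.613 (0.359 to 1.04) at Zc3h12a +2839, 1.19 (0.48 to 3.12) at Dusp6 +5719, and 0.613 (0.262 to 1.40) at Dusp4 -470. At Dusp10 +50753 the counting interval lay above 1, with a ratio of 1.71 (1.01 to 2.96), and at Zfp36 -1920 below 1, with 0.596 (0.372 to 0.947). The libraries of the groups overlapped at Dusp10 +50753 and did not overlap at Zfp36 -1920. For the summed tags of Zc3h12a, the ratio was 0.823 (0.68 to 0.995) with an edgeR adjusted p of 0.441. With all tags of a library in place of tags in peaks as library size, the median of all peaks in this comparison shifted from 0.03 to 0.21 on the log2 scale.

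For RGFP966 + KLA against Veh, 5 of the 20 member peaks were called, with 3 gained (Zc3h12a -30313, Dusp10 +50753 and Socs3 +85) and 2 lost (Dusp4 -470 and Dusp6 +5719). None of the 3 gained peaks was in the Veh peak set, and the 2 lost peaks were in the Veh set alone. These calls too are not independent of how the peaks were chosen. Over all peaks 6.89% were gained and 2.99% lost, and the median log2 fold change was 0.07 for the members and 0.04 for all peaks. This comparison shares its Veh libraries with that of KLA against Veh, so the peaks called in both are not separate evidence. DESeq2 called 0 peaks of the whole table here too, with 742 peaks and 4 members under an unadjusted p of 0.05. Of the gene sums, Socs3 was higher by 0.69 on the log2 scale (edgeR adjusted p = 0.038), and Dusp4, whose sum is its 1 peak, fell by 1.76 on the log2 scale (edgeR adjusted p = 0.0063), against 5.85% of all sums called higher and 3.44% lower. No Socs3 peak was in the Veh set, so these calls of sums are likewise not independent of how the peaks were chosen. DESeq2 gave no adjusted p for 4 of the 8 sums and called 0 of the others, and 5 sums of all genes. The Socs3 call was lost without any 1 of the Veh or RGFP966 + KLA libraries (edgeR adjusted p 0.0618 to 0.326). It was also lost with TMM factors (0.0523) and with all tags as library size (0.241), and with the promoter peak left out the change was 0.32 on the log2 scale (0.358). The Dusp4 call was lost without Veh replicate 2 (0.0927) or RGFP966 + KLA replicate 1 (0.0943).

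In NCoR1 flox/flox BMDMs at Veh, all 10 genes had at least 1 peak. For Dusp1, a nuclear phosphatase of p38 and JNK, 5 peaks were counted, and its promoter (-220) held 3.76 and 5.10. Of these 5, 2 were listed by the authors for Veh, 1 for KLA and 2 for neither in these cells. Dusp16, a phosphatase of JNK, had a single promoter peak (-53) with 3.76 and 4.51. Per kb of peak, the mean share was highest for Dusp10, at 23.9 ± 4.41 (SD, n = 2), followed by Zfp36 at 16.8 ± 1.28, Dusp2 at 14.1 ± 1.51 and Dusp1 at 12 ± 1.03. Neighbors from Dusp10 to Dusp1 in this order did not overlap between their libraries. From Dusp1 through Zc3h12a (11.5 ± 1.08), Dusp6 (10.7 ± 0.266), Dusp4 (10.2 ± 0.539) and Dusp5 (9.87 ± 1.75) to Dusp16 (9.07 ± 1.17), each gene overlapped the next. Socs3 was lowest, at 6.30 ± 0.149 over 8 peaks, with both libraries below all others. In WT BMDMs at Veh, Dusp10 was likewise highest per kb of peak (61.3 ± 10.0) and Socs3 lowest (15.0 ± 2.51) among the 8 genes with peaks. These levels divide by the width of all merged peaks, including those not called at Veh. Of the 8 NCoR1 flox/flox peaks of Socs3, 7 were listed for KLA and not Veh, and none of its 4 WT peaks was in the Veh set. Its rank at Veh therefore depends on which peaks were merged.

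**Figure D4:**
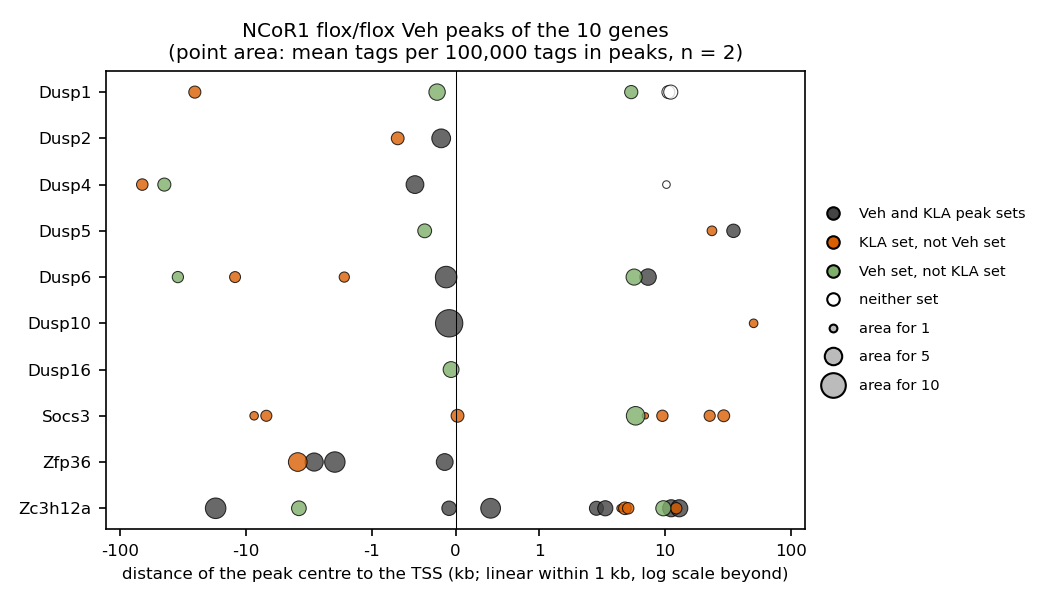
The 48 member peaks counted in NCoR1 flox/flox BMDMs by gene (y axis) and distance of the peak center to the TSS in kb (x axis, linear within 1 kb and on a log scale beyond). Point area is the mean of 2 Veh libraries in tags per 100,000 tags in peaks, and color the NCoR1 flox/flox peak sets that list the peak. Of the 8 Socs3 peaks, 7 belong to the KLA set and not the Veh set.

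The NCoR1 flox/flox table also names, for every peak, the conditions in which the authors called it, including KLA in these cells, whose libraries were not analysed here. It also merges peaks of cells labelled NKO, the paper's name for NCoR knockout. Not all peaks counted there were thus called in NCoR1 flox/flox cells. Of the 48 peaks, 16 were listed for both Veh and KLA of NCoR1 flox/flox, 19 for KLA and not Veh, 10 for Veh and not KLA, and 3 for neither. Those 3 were listed for NKO alone. A listing for KLA and not Veh was found for 39.6% of the members and 28.7% of all 24867 peaks. One for Veh and not KLA was found for 20.8% and 15.9%. With or without Veh, 72.9% of the members and 75.1% of all peaks were listed for KLA. Promoter peaks made up 29.2% of the members and 47.6% of all peaks. At Socs3, 7 of 8 peaks were listed for KLA and not Veh and none for both, while 3 of the 4 Zfp36 peaks and 7 of the 13 Zc3h12a peaks were listed for both. Such a listing is a yes or no call without a size, and no test was made on it.

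Of the 20 WT member peaks, 19 overlapped a member peak of the NCoR1 flox/flox table by at least 1 bp, and Zc3h12a -30313 did not. The counterparts of the Socs3 promoter and of Dusp10 +50753 were listed for KLA and not for Veh, and that of Dusp6 +5719 was listed for Veh and not for KLA, in libraries other than those of the WT comparisons. The counterparts of Zc3h12a +2839 and Dusp4 -470 were listed for both. Peaks called in no WT comparison had such listings too. For KLA and not Veh these were Socs3 +9238, Socs3 +22726 and Zfp36 -3876, and for Veh and not KLA Dusp5 -326 and Socs3 +5831. The listings thus did not set the called peaks apart. In the 2 NCoR1 flox/flox Veh libraries, the Socs3 promoter held 13 and 10 tags and the Dusp10 distal peak 4 and 7, against 53 and 53 at the Dusp10 promoter. The median peak of these libraries held 12 and 16 tags, so the Socs3 promoter was near it. In the WT Veh libraries this promoter held 3 and 2 tags, and the median peak 11 and 10.

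Other genes of these pathways were counted in 5 lists of 48 genes, of which 30 had 50 WT peaks in range. With KLA, 2 of the 50 peaks were gained and 4 lost, where 3.3% of all peaks were gained and 1.73% lost. Among the SOCS genes, the promoter of Socs1, the closest functional relative of Socs3 in JAK inhibition, had 7 and 7 tags at Veh and 33 and 28 with KLA and was gained by 1.83 on the log2 scale (edgeR adjusted p = 0.00219). Among the decay genes, a peak at Zc3h12c +13701, in a paralog of Zc3h12a, was gained by 1.74 (edgeR adjusted p = 0.029). The paralog of Zfp36, Zfp36l2, lost 2 promoter peaks, at -718 by 1.37 on the log2 scale (edgeR adjusted p = 0.0148) and at +45, which fell by 2.60 (0.0032). Tob1 -1134, at the gene of an antiproliferative deadenylase adaptor, and Dusp22 +262 were the other lost peaks. Of the gene sums, Zc3h12c was higher and Zfp36l2 lower.

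For RGFP966 + KLA against KLA, 1 of the 50 peaks was gained and 1 lost, where 0.237% of all peaks were gained and 0.103% lost. Tob1 -1134 had 7 and 13 tags at Veh, 2 and 1 with KLA, and 14 and 12 with RGFP966 + KLA, and was gained by 2.64 on the log2 scale over KLA (edgeR adjusted p = 0.0465). Mapk9 -1352, at the gene of the JNK2 kinase, had 4 and 5 tags at Veh, 14 and 12 with KLA, and 4 and 4 with RGFP966 + KLA, and fell by 2.04 on the log2 scale (edgeR adjusted p = 0.033). DESeq2 called 0 of all peaks for RGFP966 + KLA against KLA. Calls in these lists were not checked with libraries left out or other settings. Against Veh, RGFP966 + KLA gained 4 of the 50 peaks, among them peaks of Socs1, Btg1 and Spred2, and lost 3 (Zfp36l2 +45, Spry2 and Mapkapk2), where 6.89% of all peaks were gained and 2.99% lost. Of the gene sums in this comparison, 2 were higher, that of Spred2 among them, and 2 were lower, those of Zfp36l2 and Mapkapk2.

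For the members whose sums were called in any comparison, the genes with the most similar pattern were sought by Pearson's r over the 6 WT libraries on log2 shares, among genes with a mean of at least 30 summed tags. Among these were Trim55 for Dusp4 (r = 0.969) of 1199 genes, for Socs3 Alpk1 (0.994) and Tmcc3 (0.979) of 1198, and for Zc3h12a Nucb2 (0.975) and Ppp1r12a (0.975). The 6 points share libraries and their depths, and the values are a description with no test.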

How the data were processed

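The authors aligned ATAC-seq reads (Bowtie2, mm10), used HOMER for peaks, merged the IDR peaks of each table's conditions, and deposited raw counts of tags per peak and library, with at most 3 tags per position. Gene assignments, distances and peak-set listings come from those tables. Members and lists were chosen with earlier results of these data known. Tags were summed per peak and per gene. They were tested with edgeR 4.0.16 (glmQLFit, glmQLFTest) in R 4.3.3 over all peaks or genes, with 6 WT libraries in 1 model, tags in peaks as library size and at least 4 tags in 1 sample. Peaks were called at an adjusted p under 0.05 and over 2-fold, gene sums at the adjusted p alone. The fits were tested on simulated data. Named for each gene were its sum, the peak nearest the TSS, the peak with the lowest p for KLA, and every called peak. Zc3h12a +409 was added as the other promoter peak of that gene, without alternative settings. Alternatives were DESeq2 1.42.0, TMM factors, loess offsets, all tags as library size, other filters, distances and fold thresholds, distal peaks only, 4 libraries, the replicate block and each library left out. Exact intervals of ratios are conditional binomial. For 9 of the 10 genes a RefSeq start in GRCm38.p6 was at hand, and distances matched it in 8 and differed by 173 bp in Dusp5. Sequence was read with pysam 0.24.0, and motif counting was tested on planted matches. No group had over 2 libraries, so none was screened for outliers. Results for some genes are not reported here.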

Additional observations from a re-analysis of the deposited data

How the results depend on the processing

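Counts of called members moved with the test, the filter and the libraries. DESeq2 called 0 member peaks and 0 member sums in every comparison, with 4 sums left without an adjusted p for RGFP966 + KLA against Veh. A filter of 16 tags left 2 called peaks in KLA against Veh and 2 in RGFP966 + KLA against Veh. For the sums with KLA, all tags as library size and the fit of only the 4 libraries gave 0, and distal peaks alone gave 2 (Dusp6 and Zc3h12a). For the sums of RGFP966 + KLA against Veh, TMM factors, all tags as library size and the filter of 16 tags each gave 1. With 1 library left out, counts ranged from 1 to 3 for peaks with KLA, from 0 to 1 for sums with KLA, from 1 to 5 for peaks of RGFP966 + KLA against Veh, and from 0 to 2 for its sums, with the lone library of a group assumed to vary like the others. For RGFP966 + KLA against KLA every alternative gave 0 peaks and 0 sums. Replicate numbers did not pair the libraries, with correlations of deviations of 0.07, 0.03 and 0.03 over 3402 peaks, and the replicate block called 4, 0 and 5 peaks. Over the called members and all alternatives run, 112 values kept the call, 54 lost it and none reversed, and the cause of the lost calls was not tested. The kept values include settings close to the main one, such as no filter, which left the called KLA peaks unchanged. Peaks that the filter of 16 tags removed, and sums without an adjusted p, are not counted as lost. The 2 counts are therefore not a measure of robustness.

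Some changes that were not called did reverse. For KLA against Veh (log2 scale), Dusp10 -84 gave -0.0042 with TMM factors, -0.0949 with all tags, -0.042 with DESeq2 and -0.0092 with the replicate block, and the Zfp36 sum gave -0.0488 with distal peaks only. Loess offsets gave -0.0597 at Dusp6 +5719 and -0.677 at Zc3h12a -30313 for RGFP966 + KLA against KLA, and DESeq2 gave -0.0185 for the Socs3 sum. For RGFP966 + KLA against Veh, Dusp5 gave -0.0015 with TMM factors and -0.0547 with loess offsets. With 1 library left out, changes with KLA ranged from -0.392 to 0.237 at Dusp10 -84, from -0.848 to 0.906 at Dusp5, and from -1.05 to 0.0559 at Dusp6 -100. Those of RGFP966 + KLA against KLA ranged from -0.151 to 0.479 at Dusp10 -84, from -0.246 to 0.466 at Dusp2, from -0.537 to 0.902 at Dusp5, from -0.19 to 0.919 at Dusp6 -100, from -0.794 to 0.431 at Socs3 +85, and from -1.07 to 0.0419 at Zc3h12a +2839, where the change with all libraries was -0.70. For the sums they ranged from -0.0208 to 0.552 for Dusp6 and from -0.275 to 0.297 for Socs3. Against Veh, RGFP966 + KLA ranged from -0.0138 to 0.2 at Dusp10 -84, from -0.51 to 1.08 at Dusp5, from -0.341 to 0.0407 at Dusp6 -100, from -0.576 to 0.0946 at Zfp36 -1920, and from -0.372 to 0.0169 for the Zfp36 sum. Most member peaks held under 30 tags per library, and the effect of depth was not tested.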
